A study of Mus musculus with 16 samples.

Results

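The genes described here bring glucose into the cell and carry it through glycolysis to pyruvate and lactate. They were chosen by name, as every probe that the platform annotation assigns to Slc2a1, Slc2a3, Hk1, Hk2, Pfkp, Pfkl, Pgam1, Pkm, Ldha or Pdk1, where Pdk1 is pyruvate dehydrogenase kinase. This gave 10 genes with 13 probes, of 17484 genes and 25297 named probes tested. All 13 probes passed the filter on low signal, being above their local background on 16 of 16 arrays.

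Transcripts were measured on 2-colour arrays in Ba/F3, a mouse haematopoietic line kept alive by interleukin-3. Clonal lines, obtained by electroporation, G418 selection and limited dilution, stably carried FOXO3(A3)-ER or FOXO4(A3)-ER, expressed from pcDNA3 with an HA tag. In A3 forms the PKB phosphorylation sites are mutated, and the ER domain holds the fusion inactive until 4-hydroxytamoxifen (4-OHT) is added. The 4 groups were the FOXO3 line after 2 h or 8 h of 4-OHT and the FOXO4 line after 2 h or 8 h, with 4 arrays each. Every array set treated RNA against the untreated (time 0) pool of the same line, and in each group Cy5 labelled the treated RNA on 2 arrays and the pool on the other 2. All cells were grown in interleukin-3 and carried a fusion, so no array separates the fusion's activity from 4-OHT itself or from time in culture. Each line is a clone, and a difference between the FOXO3 and FOXO4 lines cannot be told apart from a difference between clones. The series title concerns FOXO control of glutamine metabolism and autophagy; the comparisons here ask how genes of glucose use moved after FOXO3 or FOXO4 was switched on.

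Over the arrays, median signal ran from 94.8 to 169 (Cy5) and from 98.2 to 161 (Cy3). Values are log2 ratios of treated over time 0 with the standard error (SE) of a limma fit over all 16 arrays, n = 4 arrays per group. A gene was called when its Benjamini-Hochberg adjusted p over all 17484 genes was under 0.05, and "rose" and "fell" are used only of called genes. The ratios at 2 h and at 8 h of one line share that line's pool. In bulk RNA, less transcript per cell and fewer cells that hold it cannot be told apart. Against the label of a pro-B line, 1 of 12 tested B-lineage markers (Cd79b) was above the external control spots on at least 12 of 16 time 0 channels, and Cd79a, Vpreb1, Ebf1 and Pax5 were above them on 0. Of 12 mast cell, basophil and myeloid markers 2 were above (Cpa3 and Csf1r), and of 7 T, NK and erythroid markers 1 (Hba-a1). Of the 12 B-lineage markers 0 were called at 2 h in either line, where 7.8% of all genes were called in FOXO3 and 8.8% in FOXO4 cells. At 8 h 1 of them fell in FOXO3 cells. Of the 12 mast and myeloid markers 1 fell at 8 h in each line, where 15.1% of all genes fell in FOXO3 and 8.75% in FOXO4 cells. Of the 7 others, the erythroid factor gene Klf1 fell in all 4 groups, by 0.77 and 0.81 in FOXO3 cells at 2 h and 8 h and by 1.02 and 0.86 in FOXO4 cells (log2). Klf1 was above the external control spots on 10 of 16 pool channels and 1 of 16 treated channels. The globin gene Hba-a1 rose at 8 h to 1.76 in FOXO3 and 0.34 in FOXO4 cells, and Cd3e rose to 0.41 in FOXO3 cells at 8 h. The part of such markers in the results below was not tested.

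Glucose enters most blood cells through facilitative transporters, of which Slc2a1 (GLUT1) and Slc2a3 (GLUT3) have high affinity. Hexokinases trap it as glucose 6-phosphate, phosphofructokinase commits it to glycolysis, and phosphoglycerate mutase and pyruvate kinase act in the lower part that yields pyruvate. Lactate dehydrogenase turns pyruvate into lactate, while pyruvate dehydrogenase kinase keeps pyruvate out of the mitochondrial citrate cycle by phosphorylating pyruvate dehydrogenase. In Ba/F3 and other growth-factor-dependent cells, interleukin-3 and PI3K-PKB signalling sustain glucose uptake and hexokinase activity, and PKB inactivates FOXO factors.

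The promoters of Hk2, Slc2a1, Pdk1 and Ldha are shown because the first 3 genes carry the results at the hexokinase, uptake and pyruvate steps, and Ldha is the member whose window holds the most matches to the motifs searched. Sequences are from RefSeq (GRCm38.p6), 250 bases before to 50 after an annotated start, 5′ to 3′ on the gene's strand. Capitals mark CACGTG, a MYC and MLX type E-box, and ACGTG, the core of the hypoxia response element, on either strand (CACGT on the opposite one). Every CACGTG also holds ACGTG. Hk2 is at chr6:82774405-82774704 on the minus strand, Slc2a1 at chr4:119108495-119108794, Pdk1 at chr2:71872974-71873273 and Ldha at chr7:46845554-46845853, all 3 on the plus strand. For Pdk1 and Ldha, each with 2 annotated starts, the window of the upstream start is shown.
Hk2: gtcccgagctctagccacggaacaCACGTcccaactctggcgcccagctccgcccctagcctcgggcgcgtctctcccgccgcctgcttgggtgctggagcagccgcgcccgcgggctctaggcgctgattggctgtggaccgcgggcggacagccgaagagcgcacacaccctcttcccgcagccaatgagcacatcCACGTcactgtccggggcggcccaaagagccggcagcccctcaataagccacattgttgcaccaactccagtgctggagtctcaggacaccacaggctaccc
Slc2a1: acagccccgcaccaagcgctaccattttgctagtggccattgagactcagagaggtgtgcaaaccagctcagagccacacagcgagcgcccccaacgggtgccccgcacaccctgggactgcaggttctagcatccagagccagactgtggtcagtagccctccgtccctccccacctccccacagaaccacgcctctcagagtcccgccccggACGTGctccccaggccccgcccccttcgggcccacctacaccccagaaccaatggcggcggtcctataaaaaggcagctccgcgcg
Pdk1: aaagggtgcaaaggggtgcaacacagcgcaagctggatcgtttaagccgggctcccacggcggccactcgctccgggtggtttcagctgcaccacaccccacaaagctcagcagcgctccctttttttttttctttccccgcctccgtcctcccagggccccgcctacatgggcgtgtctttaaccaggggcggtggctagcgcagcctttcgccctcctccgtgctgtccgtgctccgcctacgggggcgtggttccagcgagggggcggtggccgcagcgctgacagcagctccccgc
Ldha: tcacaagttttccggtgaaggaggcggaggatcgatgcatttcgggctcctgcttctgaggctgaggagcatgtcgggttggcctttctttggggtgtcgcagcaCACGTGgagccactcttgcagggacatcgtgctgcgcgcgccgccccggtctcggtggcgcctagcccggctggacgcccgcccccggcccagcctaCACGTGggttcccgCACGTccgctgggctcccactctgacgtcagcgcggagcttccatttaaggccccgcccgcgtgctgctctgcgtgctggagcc

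With the annotated start as position 0, ACGTG lay in the Hk2 window at positions -226 and -52, both on the opposite strand, and in the Slc2a1 window at position -36. The Pdk1 window had none, and the Ldha window had CACGTG at positions -145 and -48 and a further ACGTG at -34. RefSeq windows were matched for 9 of 10 members, 13 windows in all, and Slc2a3 had no entry. CACGTG was present in 1 of the 13 windows against 7.15% of 32841 promoter windows of this length, and ACGTG in 6 of 13 against 19.6%. The forkhead motif GTAAACA, searched on both strands, was in 0 of 13 windows and in 3.65% of all windows. These are matches of letters in short windows.

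**Figure D1:**
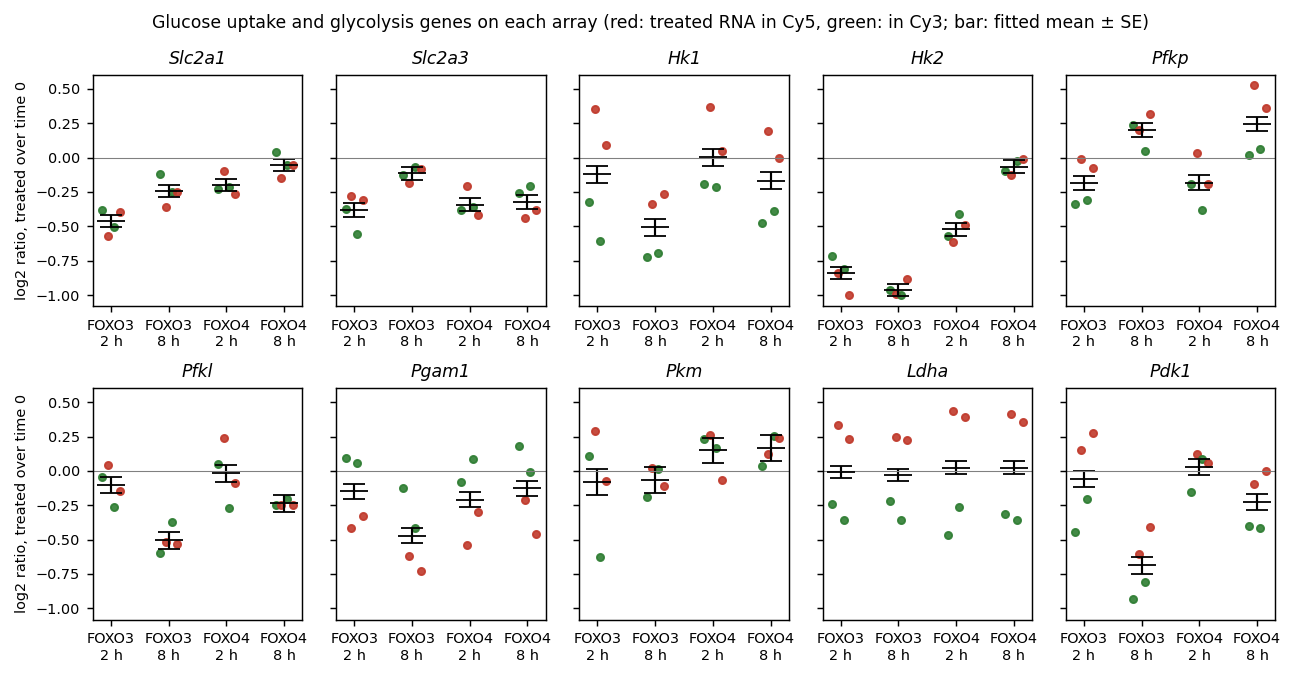
Log2 ratio of treated over time 0 for each member on each array (y axis) in the 4 groups (x axis); red points had treated RNA in Cy5, green points in Cy3, and black bars are the fitted mean ± SE. The 4 Hk2 points lie between -0.9998 and -0.72 in FOXO3 cells at 2 h and between -0.12 and -0.010 in FOXO4 cells at 8 h, while Ldha splits by dye in every group.

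In FOXO3 cells at 2 h the genes of glucose entry were lower: Hk2 stood at -0.84 ± 0.044, a 1.79-fold fall, Slc2a1 at -0.46 ± 0.045 and Slc2a3 at -0.38 ± 0.050. Of the 10 members 0 rose, 4 fell and 6 were not called, where 3.47% of all genes rose, 4.34% fell and 7.8% were called in either direction. The members' median log2 ratio was -0.14, against -0.0035 over all genes tested. The fourth member to fall was Pfkp, the platelet-type phosphofructokinase, at -0.18 ± 0.052. Hexokinase 1, liver-type phosphofructokinase (Pfkl), Pgam1, Pkm, Ldha and Pdk1 were not called.

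For Hk2, the hexokinase isoform that growth factors are known to induce, the 4 arrays at 2 h gave -0.72, -0.84, -0.81 and -0.9998 in FOXO3 cells. All 4 lay below every array of FOXO4 cells at either time. The adjusted p was 3.54e-10, and Hk2 had the 9th lowest ratio of the 17484 genes. Slc2a1, the main basal glucose transporter, gave -0.38, -0.57, -0.51 and -0.40 on the same arrays. Slc2a1 was below 0 on 4 of 4, with an adjusted p of 1.05e-06. Slc2a3 gave -0.38, -0.28, -0.55 and -0.31, again below 0 on 4 of 4 (adjusted p = 4.41e-05). These 3 calls held under every alternative tried.

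Pfkp at 2 h in FOXO3 cells gave -0.34 and -0.31 with treated RNA in Cy3 and -0.0083 and -0.074 in Cy5 (adjusted p = 0.0358). That call was lost without any 1 of its 4 arrays (adjusted p 0.0677 to 0.138), on the authors' deposited log2 values (0.0599), with external-control centring (0.154) and without the dye term (0.608). Pgam1 had 2 probes, and at 2 h the brighter one stood at -0.15 ± 0.055 (adjusted p = 0.131) and the other at -0.21 ± 0.052 (adjusted p over all probes = 0.0177). Averaging its probes made the gene a call (adjusted p = 0.0312), as did the authors' deposited log2 values (0.0269).

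By 8 h in FOXO3 cells members at several steps of the pathway had fallen. Hk2 remained low at -0.96 ± 0.044, a 1.95-fold fall (adjusted p = 3.24e-12), and Pdk1 stood at -0.69 ± 0.059, a 1.61-fold fall (adjusted p = 1.95e-08). Hk1 was at -0.51 ± 0.061, Pfkl at -0.50 ± 0.062, Pgam1 at -0.47 ± 0.055 and Slc2a1 at -0.24 ± 0.045. Of the 10 members 1 rose, 6 fell and 3 were not called, where 15.4% of all genes rose, 15.1% fell and 30.5% were called. Pfkp was the member that rose, to 0.20 ± 0.052 (adjusted p = 0.00485). The members' median was -0.36, against -0.0023 over all genes. With probes averaged it was -0.24, and with a filter at the external control spots, which leaves out Ldha, it was -0.47.

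The 4 Hk2 arrays at 8 h in FOXO3 cells gave -0.97, -0.9955, -0.9976 and -0.89, a narrow range that overlapped the 2 h arrays. Pdk1 gave -0.93, -0.61, -0.81 and -0.41, so all 4 were below 0, the 2 with treated RNA in Cy3 lower than the 2 in Cy5. At 2 h Pdk1 had ranged from -0.45 to 0.27, with only 1 array as low as the highest at 8 h. Hk1, the hexokinase present in most tissues, gave -0.72, -0.34, -0.70 and -0.27 (adjusted p = 1.75e-06). Pfkl, the liver-type subunit of phosphofructokinase, gave -0.60, -0.52, -0.37 and -0.53 (adjusted p = 1.98e-06). Pgam1, which moves the phosphate of 3-phosphoglycerate, gave -0.12, -0.62, -0.42 and -0.73 (adjusted p = 9.76e-07). In each of these 3 genes all 4 arrays were below 0.

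Slc2a1 at 8 h in FOXO3 cells gave -0.12, -0.36, -0.25 and -0.25 (adjusted p = 0.000215), and each array was higher than every 2 h array. Slc2a3 gave -0.13, -0.18, -0.070 and -0.082, a mean of -0.12 that was not called (adjusted p = 0.0994). The 6 calls of lower genes at 8 h held under every alternative. The rise of Pfkp was lost without replicate 1 (adjusted p = 0.0692), with external-control centring (0.214) and without the dye term (0.156).

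In FOXO4 cells at 2 h the same entry genes were lower. Hk2 stood at -0.52 ± 0.044, a 1.44-fold fall, Slc2a3 at -0.34 ± 0.050 and Slc2a1 at -0.20 ± 0.045. Of the 10 members 0 rose, 5 fell and 5 were not called, where 3.39% of all genes rose and 5.41% fell. The other 2 that fell were Pgam1, at -0.21 ± 0.055, and Pfkp, at -0.18 ± 0.052. The members' median was -0.10, against -0.0031 over all genes.

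Hk2 gave -0.57, -0.62, -0.41 and -0.49 on the 4 FOXO4 arrays at 2 h (adjusted p = 2.07e-07), with no overlap with the FOXO3 arrays. Slc2a3 gave -0.38, -0.21, -0.36 and -0.42 (adjusted p = 0.000151), within the range of the FOXO3 arrays apart from its highest. Slc2a1 gave -0.23, -0.098, -0.21 and -0.26 (adjusted p = 0.0066), all above the FOXO3 arrays. The calls of Hk2 and Slc2a3 held under every alternative. Without replicate 1 the count of members called dropped from 5 to 3, with Slc2a1 at an adjusted p of 0.0546 and Pgam1 at 0.13. Pgam1 was also lost without replicate 2 (0.155) and with median centring (0.0624), and Pfkp without replicate 3 (0.154), without replicate 4 (0.218) and with the line fitted alone (0.0524); all 3 were lost without the dye term.

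In FOXO4 cells at 8 h the ratio of Hk2 was -0.065 ± 0.044 and that of Slc2a1 -0.053 ± 0.045, neither called (adjusted p = 0.446 and 0.582). For Hk2 the pool channel was itself lower on these arrays than on the 2 h arrays, by a difference of -0.31, with treated RNA 0.15 higher. Slc2a3 was still lower, at -0.32 ± 0.050 (adjusted p = 8.5e-05). Pfkl fell to -0.24 ± 0.062 (adjusted p = 0.00925) and Pdk1 to -0.23 ± 0.059 (adjusted p = 0.00949), while Pfkp rose to 0.24 ± 0.052 (adjusted p = 0.00203). Of the 10 members 1 rose, 3 fell and 6 were not called, where 9.71% of all genes rose and 8.75% fell. Hk1 stood at -0.17 ± 0.061 and was not called (adjusted p = 0.0702), with its dimmer probe at -0.044. Hk1 was called lower with median centring (adjusted p = 0.0168), on the authors' deposited log2 values (0.0439) and with the line fitted alone (0.0472). A filter at the external control spots also made the call (0.0373). So did leaving out FOXO3 2 h replicate 2 (0.0383) or 3 (0.0333) or FOXO4 2 h replicate 4 (0.0421). The members' median was -0.095, against -0.011 over all genes.

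On the 4 FOXO4 arrays at 8 h Hk2 gave -0.099, -0.12, -0.025 and -0.010, each above every 2 h array of the line. Slc2a3 gave -0.26, -0.44, -0.20 and -0.38, close to the range at 2 h. Pfkl gave -0.25, -0.25, -0.21 and -0.25, which hardly varied, and Pdk1 gave -0.40, -0.094, -0.42 and -0.0035, a split by dye. Pfkp gave 0.017 and 0.065 in Cy3 and 0.53 and 0.36 in Cy5, all above 0. The Slc2a3 call held under every alternative. Without replicate 2 the count of members called dropped from 4 to 2, with Pfkl at an adjusted p of 0.0518 and Pdk1 at 0.0537. Pfkl was also lost without replicate 4 (0.0534) and with median centring (0.0871), Pdk1 with median centring (0.0571) and without the dye term (0.363), and Pfkp with external-control centring (0.0781) and without the dye term (0.124).

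Pkm and Ldha were called in none of the 9 comparisons, and at the unadjusted level no p of theirs was under 0.05. Pkm, listed on the array under its older name Pkm2, encodes muscle-type pyruvate kinase. Its brighter probe ranged from -0.63 to 0.29 in FOXO3 cells at 2 h, and its group means lay between -0.078 and 0.16 with an SE of 0.094, against 0.044 to 0.062 for the other members. Its dimmer probe lay between -0.12 and -0.0023 in the 4 groups, with no call. The Ldha probe, for the muscle-type lactate dehydrogenase subunit, was above the external control spots on 0 of 16 arrays. Its group means lay between -0.029 and 0.025, and its dye term was 0.33 on the log2 scale, so each array's own ratio followed the dye. The 95% interval of the FOXO3 8 h value was -0.13 to 0.068 for Ldha and -0.26 to 0.13 for Pkm.

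**Figure D2:**
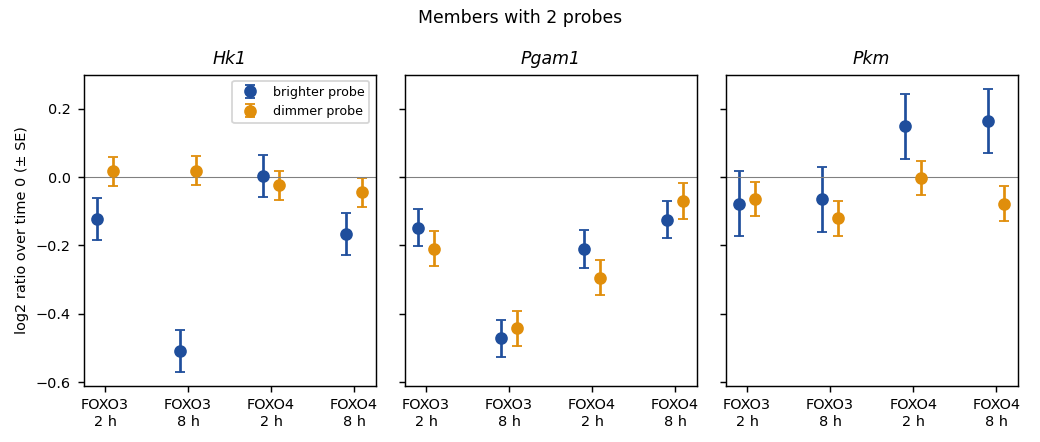
Fitted log2 ratio over time 0 (y axis, mean ± SE) for the brighter (blue) and dimmer (orange) probe of Hk1, Pgam1 and Pkm in the 4 groups (x axis). Both Pgam1 probes are low in FOXO3 cells at 8 h (-0.47 and -0.44), while the dimmer Hk1 probe stays near 0 (0.018) where the brighter one is at -0.51.

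The 3 genes with 2 probes differed in how well the probes matched. Both Pgam1 probes fell in FOXO3 cells at 8 h, to -0.47 ± 0.054 and -0.44 ± 0.052, and both were lower in FOXO4 cells at 2 h, at -0.21 and -0.29. The Hk1 probes did not match: in FOXO3 cells at 8 h the brighter was at -0.51 ± 0.061 and the dimmer at 0.018 ± 0.043. The brighter Hk1 probe was above the external control spots in treated RNA on 6 of 16 arrays and in the pool on 9 of 16, and the dimmer probe on 0 of 16 arrays. Pdk1 was above them in treated RNA on 10 of 16 arrays and in the pool on 11 of 16. The probes of Slc2a1, Slc2a3, Hk2, Pfkp, Pfkl and Pgam1, and the brighter Pkm probe, were above them in both channels on all 16.

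Between 2 h and 8 h the members of the FOXO3 line moved in opposite directions. The ratios of Pfkp, Slc2a3 and Slc2a1 rose, by 0.38 ± 0.074, 0.26 ± 0.071 and 0.22 ± 0.063. For Slc2a3 the treated channel differed by -0.066 and the pool by -0.33. Pdk1, Pfkl, Hk1 and Pgam1 fell, by 0.63 ± 0.084, 0.40 ± 0.087, 0.38 ± 0.087 and 0.32 ± 0.077. This made 3 members higher and 4 lower, where 11.8% of all genes rose, 9.99% fell and 21.8% were called. Hk2 did not pass the test (-0.12 ± 0.063, adjusted p = 0.232), with a 95% interval of -0.25 to 0.012. The falls of Pdk1 (adjusted p = 1.24e-05) and Pfkl (0.00186) held under every alternative.
The other 5 calls were each lost under some setting: all but Slc2a3 without the dye term, Slc2a1, Slc2a3 and Pgam1 under median and external-control centring, and Slc2a1 (adjusted p = 0.0154) without FOXO3 2 h replicate 2 (0.0604) or 3 (0.0548) or FOXO3 8 h replicate 1 (0.066).

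In the FOXO4 line 2 members rose between 2 h and 8 h and 0 fell, where 6.74% of all genes rose and 3.95% fell. Hk2 rose by 0.46 ± 0.063 (adjusted p = 5.83e-05), a call that held under every alternative. Pfkp rose by 0.42 ± 0.074 (adjusted p = 0.000643), lost without the dye term (0.0879). Pdk1 stood at -0.26 ± 0.084 and missed the threshold (adjusted p = 0.0609), with a 95% interval of -0.43 to -0.080. It was called lower with the replicate block (0.0382) and under 3 other settings (0.0318 to 0.0425), and without FOXO3 2 h replicate 1 (0.0313) or 4 (0.0476) or FOXO4 2 h replicate 4 (0.0326). Pfkl stood at -0.22 ± 0.087 (adjusted p = 0.141) and was called lower only without FOXO4 2 h replicate 3 (0.0254). The rise of Hk2 is a rise of the ratio, in which treated RNA differed by 0.15 and the pool by -0.31 between the 8 h and 2 h arrays.

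**Figure D3:**
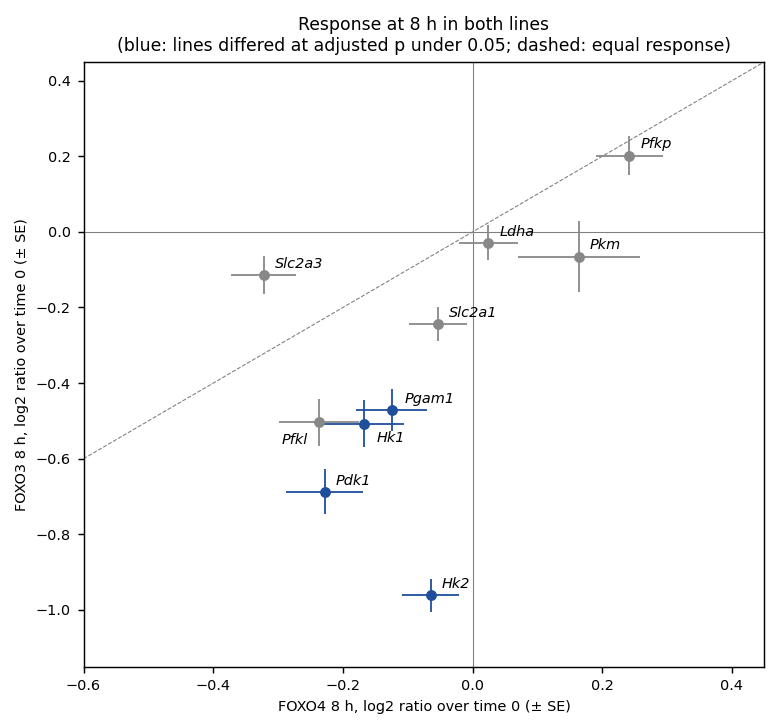
Fitted log2 ratio over time 0 at 8 h in FOXO3 cells (y axis) against FOXO4 cells (x axis), with SE bars, for the 10 members; blue marks the 4 members whose response differed between the lines and the dashed line is equal response. Hk2 lies farthest from the line, at -0.96 in FOXO3 cells and -0.065 in FOXO4 cells.

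At 2 h no member's response differed between the lines after adjustment, where 0.0343% of all genes were called. At an unadjusted p under 0.05 there were 2 of 10, where 961 of all 17484 genes were. They were Hk2 at -0.32 ± 0.063 (FOXO3 minus FOXO4, adjusted p = 0.124) and Slc2a1 at -0.26 ± 0.063 (adjusted p = 0.287). On the authors' deposited log2 values Hk2 was called (adjusted p = 0.0499). At 8 h 4 members were lower in the FOXO3 line and 0 higher, where 5.28% of all genes were lower and 5.37% higher. Hk2 differed by -0.90 ± 0.063 (adjusted p = 4.19e-08), Pdk1 by -0.46 ± 0.084 (0.0011), Pgam1 by -0.35 ± 0.077 (0.00551) and Hk1 by -0.34 ± 0.087 (0.0147). The 4 FOXO3 arrays of Hk2 all lay below the 4 FOXO4 arrays. The arrays of Hk1, Pgam1 and Pdk1, which split by dye, overlapped between the lines only across dyes. Among arrays with treated RNA in the same dye, every FOXO3 array of Hk1, Pgam1 and Pdk1 lay below every FOXO4 array. These are the arrays that gave the calls, with 2 per line in each dye, so their order adds no separate evidence. Only Hk2 was called under every alternative. Slc2a3 was called higher in the FOXO3 line with a filter at the external control spots (adjusted p = 0.047) and on the authors' deposited log2 values (0.0352), and Slc2a1 (0.0293 to 0.0452) and Pfkl (0.0314 to 0.0363) were called lower under 3 and 2 settings. Pdk1, Pgam1 and Hk1 were lost without the dye term, Pgam1 and Hk1 with external-control centring, and Hk1 also with median centring, with probes averaged (adjusted p = 0.113), without FOXO3 8 h replicate 2 (0.0562) and without FOXO4 8 h replicate 2 (0.0595).

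The change from 2 h to 8 h itself differed between the lines for 2 members, both more negative in FOXO3 cells, where 1.43% of all genes were more negative, 1.88% more positive and 3.31% either. For Hk2 the difference was -0.58 ± 0.089 (adjusted p = 0.00115), lost only with external-control centring (0.0774). For Pgam1 it was -0.41 ± 0.11 (adjusted p = 0.047), and it was lost under 7 of the 9 other settings and without any 1 of 12 arrays. The dimmer Pgam1 probe gave -0.46 ± 0.10. Adjusted over all probes, p was 0.0225 for the dimmer and 0.0572 for the brighter probe. Pdk1 was at -0.37 ± 0.12 (adjusted p = 0.11). It was called without FOXO3 2 h replicate 1 (0.0308) and without FOXO4 2 h replicate 3 (0.0231). This comparison was added after the data were seen.

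**Figure D4:**
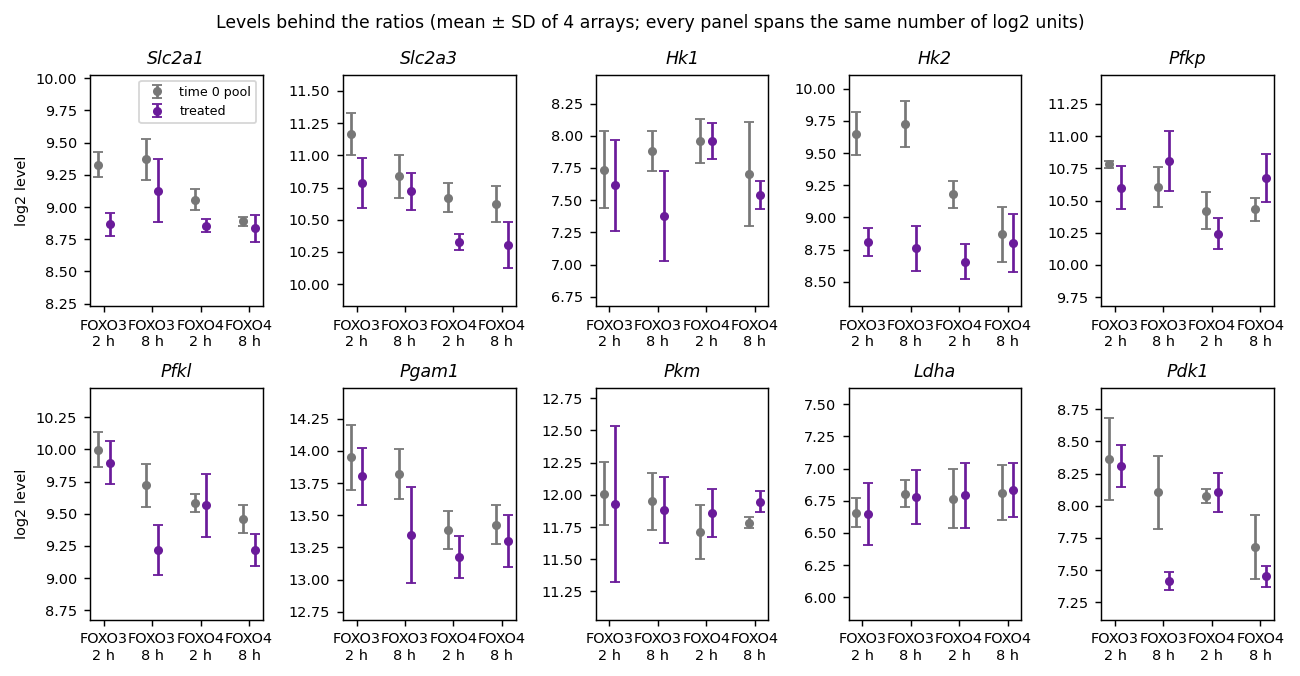
Log2 level of each member (y axis; average intensity made equal in distribution between arrays) in the time 0 pool (grey) and in treated RNA (purple), mean ± SD of 4 arrays in each group (x axis); each panel spans the same number of log2 units. Treated Hk2 lies between 8.66 and 8.81 in all 4 groups, while the pool is at 9.65 and 9.72 on the FOXO3 arrays and at 9.18 and 8.87 on the FOXO4 arrays.

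The levels of the pool and the treated channel were also set side by side, as a description. They were put on a common scale by making average intensities equal in distribution between arrays, and each compares 1 probe with itself. Treated Hk2 was at 8.81 ± 0.11, 8.76 ± 0.17, 8.66 ± 0.14 and 8.80 ± 0.22 (SD, n = 4) in FOXO3 cells at 2 h and 8 h and FOXO4 cells at 2 h and 8 h, a span within the spread between arrays. The Hk2 level of the FOXO3 pool was 9.65 ± 0.17 on the 2 h arrays and 9.72 ± 0.18 on the 8 h arrays. That of the FOXO4 pool was 9.18 ± 0.10 and 8.87 ± 0.21. The 2 lines therefore differed in Hk2 more in the pool than in treated cells, and with 1 pool per line this was not tested.

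The labels name 1 pool per line, yet the FOXO4 pool's Hk2 level was 0.31 lower on the 8 h than on the 2 h arrays (a difference of -0.31), where the middle 90% of all genes lay between -0.20 and 0.18. Treated Hk2 was 0.15 higher at 8 h. Both shifts enter the rise of 0.46 in the ratio, and their parts were not tested. For Pdk1 the FOXO4 pool differed by -0.40 and treated RNA by -0.65 between the same arrays, and in the FOXO3 line they differed by -0.26 and -0.89. For Pfkp in the FOXO4 line treated RNA differed by 0.43 and the pool by 0.011. In the FOXO3 line Pfkp differed by 0.21 in treated RNA and by -0.18 in the pool. For Slc2a3 in the FOXO3 line the pool differed by -0.33 and treated RNA by -0.066, with the middle 90% of all genes at -0.24 to 0.24 for the pool. For Pfkl in the FOXO3 line treated RNA differed by -0.68 and the pool by -0.28. Slc2a1 in the FOXO3 line had a pool difference of 0.040 and a treated difference of 0.26.

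**Figure D5:**
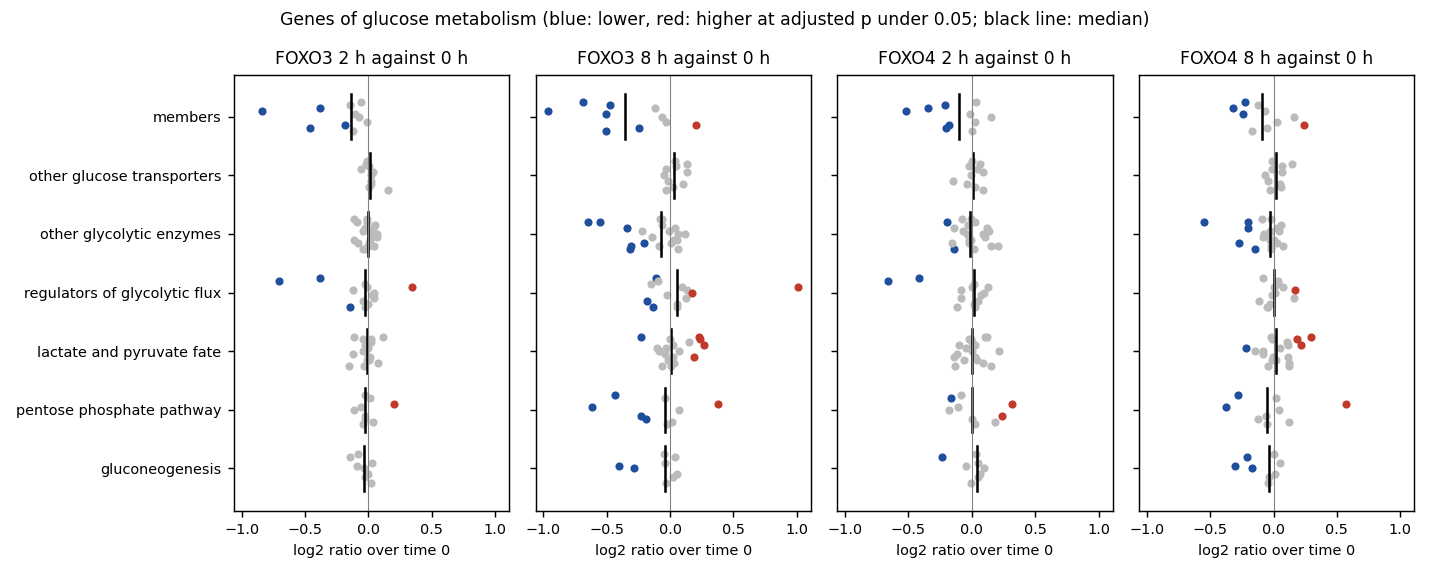
Log2 ratio over time 0 (x axis) of each gene of 7 lists of glucose metabolism (rows) in the 4 groups (panels); blue genes were called lower, red genes higher, grey genes were not called, and black lines are medians. The members' median is -0.36 in FOXO3 cells at 8 h, where that of the other glycolytic enzymes is -0.070.

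The rest of the pathway was described by lists of genes fixed by name. None of 10 other hexose transporters was called in any group, with medians of 0.013 to 0.028. Of all genes 7.8% and 30.5% were called in FOXO3 cells at 2 h and 8 h, and 8.8% and 18.5% in FOXO4 cells. At an unadjusted p under 0.05 there was 1 of 10 in each group. In the same order 2880, 6389, 3269 and 4531 of all 17484 genes were under it. Of 20 other glycolytic enzymes, 0 rose in any group, and 0, 6, 2 and 5 fell in FOXO3 cells at 2 h and 8 h and FOXO4 cells at 2 h and 8 h, where 4.34%, 15.1%, 5.41% and 8.75% of all genes fell. Their medians were -0.0051, -0.070, -0.014 and -0.030. The 6 that fell in FOXO3 cells at 8 h were Eno3, Pgm2, Pfkm, Adpgk, Tpi1 and Pgm1. Eno3, the muscle-type enolase, was at -0.65 ± 0.042 in FOXO3 cells and -0.55 ± 0.042 in FOXO4 cells at 8 h. At 2 h in FOXO4 cells the calls were Eno3 (-0.20 ± 0.042), lost with no dye term (adjusted p = 0.402) and without replicate 2 (0.0586), and Adpgk (-0.14 ± 0.043), lost under 5 settings (0.0683 to 0.542) and without most single arrays, replicates 1 (0.316) and 2 (0.315) of its own group among them. Pgm2, a phosphoglucomutase, was at -0.55 ± 0.050 and -0.20 ± 0.050, lower in the FOXO3 line (difference -0.35 ± 0.071, adjusted p = 0.00262). The Pgm2 call in FOXO4 cells was lost without replicate 2 (adjusted p = 0.0673), with no dye term (0.0513) and with median (0.135) or external-control centring (0.064).

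Pfkm, the muscle-type phosphofructokinase, fell in FOXO3 cells at 8 h to -0.34 ± 0.062, and the ADP-dependent glucokinase gene Adpgk to -0.32 ± 0.043. So in FOXO3 cells at 8 h, of the 3 phosphofructokinase subunit genes, Pfkl and Pfkm fell while Pfkp rose, the last a call that some settings ended. In FOXO4 cells at 8 h Pfkm was at -0.20 ± 0.062 and Adpgk at -0.15 ± 0.043. The Pfkm call there was lost under 5 settings (adjusted p 0.0579 to 0.122, 0.0589 with the replicate block), without replicate 4 (0.149) and without replicate 2, where its value was -0.12 (0.31). The Adpgk call was lost under 3 settings (0.193 to 0.288) and without any 1 of the group's 4 arrays (0.0644 to 0.0894). Triosephosphate isomerase (Tpi1) fell in FOXO3 cells at 8 h to -0.31 ± 0.064 and was not called in FOXO4 cells (-0.019 ± 0.064). The difference between the lines passed (-0.29 ± 0.090, adjusted p = 0.0463). At 2 h in FOXO4 cells Tpi1 stood at 0.20 with all 4 arrays above 0 and was not called. It was called higher there on the authors' deposited log2 values (adjusted p = 0.0441) and with the line fitted alone (0.0433). A filter at the external control spots (0.0267) and leaving out some single arrays also made that call, among them replicates 3 (0.0247) and 4 (0.0488) of its own group. The genes of aldolase A (Aldoa, -0.14 to 0.037), glyceraldehyde 3-phosphate dehydrogenase (Gapdh, -0.091 to 0.15) and phosphoglycerate kinase (Pgk1, -0.11 to -0.075) were called in none of the 4 groups. Pgk1 has 1 probe, so averaging probes left its own value unchanged. In FOXO3 cells at 2 h Pgk1 (-0.11) was called lower under that setting (adjusted p = 0.0291) and with no filter on dim probes (0.047). Leaving out FOXO4 2 h replicate 3 (0.0485) did the same. Hk3 was below the filter on dim probes.

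Of 13 regulators of glycolytic flux in FOXO3 cells, 1 rose and 3 fell at 2 h, and 2 rose and 3 fell at 8 h, where 3.47% and 4.34%, then 15.4% and 15.1%, of all genes did; in FOXO4 cells 0 rose and 2 fell at 2 h and 1 rose and 0 fell at 8 h, where 3.39% and 5.41%, then 9.71% and 8.75%, did. The 8 h shares are near those of all genes. Txnip, whose product promotes internalisation of glucose transporters, rose in FOXO3 cells. It gave 0.25, 0.49, 0.28 and 0.36 at 2 h and 0.89, 1.06, 1.01 and 1.10 at 8 h. All 8 were above 0 and each 8 h array was above every 2 h array, with means of 0.34 ± 0.042 (adjusted p = 1.69e-05) and 1.01 ± 0.042 (6.42e-13). In FOXO4 cells at 2 h all 4 Txnip arrays were above 0 (0.034 to 0.25), with a mean of 0.13 ± 0.042 that was not called (adjusted p = 0.0621). Txnip has 1 probe, so averaging probes left its own value unchanged. It was called at 2 h under that setting (0.0467), with a filter at the external control spots (0.046) and without replicate 2 (0.0221). At 8 h it was at 0.075 ± 0.042 and not called. The lines differed at 8 h by 0.94 ± 0.059 (adjusted p = 1.49e-08), opposite in sign to Hk2.

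Myc, a transcription factor with many glycolytic targets, gave -0.74, -0.45, -0.99 and -0.66 in FOXO3 cells at 2 h and -0.93, -0.48, -0.83 and -0.41 in FOXO4 cells at 2 h. It fell in both, to -0.71 ± 0.047 (adjusted p = 7.92e-09) and -0.66 ± 0.047 (1.74e-08). At 8 h it stood at -0.098 ± 0.047 and 0.035 ± 0.047 and was not called. Mlx, the partner of glucose-sensing MLXIP and MLXIPL, fell at 2 h in FOXO3 cells to -0.38 ± 0.041 and in FOXO4 cells to -0.41 ± 0.041, both lost without the dye term (adjusted p = 0.144 and 0.0922). Hif1a, the hypoxia-inducible regulator of glycolysis, was called in none of the 4 groups (-0.083 to 0.16). In FOXO4 cells at 8 h Hif1a was called higher on the authors' deposited log2 values (adjusted p = 0.0282) and with a filter at the external control spots (0.0366). Leaving out FOXO4 2 h replicate 2 (0.0322) or 3 (0.029) also made that call. In FOXO3 cells at 8 h it was called higher with the line fitted alone (0.0379). Pfkfb1, a liver-type maker of fructose 2,6-bisphosphate, rose in FOXO3 cells at 8 h to 0.17 ± 0.047 (adjusted p = 0.00642). That call was lost under 4 settings (adjusted p 0.0746 to 0.405) and without replicate 2 (0.0601).

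At the branch from pyruvate, 19 genes of lactate and pyruvate fate were tested. None was called at 2 h in either line, where 7.8% and 8.8% of all genes were called in FOXO3 and FOXO4 cells. At 8 h 4 rose and 1 fell in FOXO3 cells, and 3 rose and 1 fell in FOXO4 cells. Of all genes 15.4% rose and 15.1% fell in FOXO3 cells at 8 h, and 9.71% rose and 8.75% fell in FOXO4 cells. Dlat, a core subunit of pyruvate dehydrogenase, rose at 8 h to 0.27 ± 0.053 in FOXO3 and 0.21 ± 0.053 in FOXO4 cells. The mitochondrial pyruvate carrier gene Mpc1 rose to 0.24 ± 0.043 and 0.19 ± 0.043, and Pdp1, a phosphatase that reverses pyruvate dehydrogenase kinase, to 0.23 ± 0.051 and 0.30 ± 0.051. With external-control centring these calls were lost, apart from Pdp1 in FOXO4 cells, and averaging the probes of Mpc1 also ended its call in FOXO4 cells (adjusted p = 0.266). Dlat was also lost with median centring in FOXO3 cells (0.052) and without FOXO4 8 h replicate 3 in FOXO4 cells (0.0542). The Pdp1 probe was above the external control spots on 0 of 16 pool channels and 3 of 16 treated channels. Ldhb fell in FOXO3 cells at 8 h to -0.23 ± 0.041, lost without the dye term (adjusted p = 0.0921). Pdk4, a pyruvate dehydrogenase kinase gene known as a FOXO target in muscle, was above the external control spots on 0 of 16 arrays and lay between -0.0037 and 0.022. Slc16a1 was below the filter on dim probes.

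Of 9 pentose phosphate genes, in FOXO3 cells 1 was called higher at 2 h, and at 8 h 1 rose and 4 fell, while in FOXO4 cells 2 rose and 1 fell at 2 h and 1 rose and 2 fell at 8 h. Of all genes, 3.47% rose at 2 h and 15.4% rose and 15.1% fell at 8 h in FOXO3 cells, and in FOXO4 cells 3.39% rose and 5.41% fell at 2 h and 9.71% rose and 8.75% fell at 8 h. Pgd, which makes NADPH in the oxidative branch, rose at 8 h to 0.38 ± 0.060 in FOXO3 and 0.57 ± 0.060 in FOXO4 cells. At 2 h Pgd was called at 0.20 ± 0.060 in FOXO3 and 0.32 ± 0.060 in FOXO4 cells. The FOXO3 call at 2 h was lost under 6 settings (adjusted p 0.0734 to 0.419, 0.107 with the replicate block) and without replicate 1 (0.292), 2 (0.253) or 4 (0.0507) or any 1 of 5 arrays of other groups (0.051 to 0.0562), and the FOXO4 call with external-control centring (0.109) and with no dye term (0.0675). Prps2 and Prps1, which make phosphoribosyl pyrophosphate for nucleotides, fell in FOXO3 cells at 8 h to -0.61 ± 0.057 and -0.43 ± 0.051 and in FOXO4 cells to -0.38 ± 0.057 and -0.28 ± 0.051. Of 8 gluconeogenesis genes 0 rose in any group, and 0, 2, 1 and 3 fell in the order of groups above, where 4.34%, 15.1%, 5.41% and 8.75% of all genes fell. Pgls, the lactonase of the oxidative branch, fell in FOXO3 cells at 8 h to -0.23 ± 0.069 (adjusted p = 0.0136) and rose in FOXO4 cells at 2 h to 0.24 ± 0.069 (adjusted p = 0.0381). The first Pgls call was lost with no dye term (0.105) and without replicate 2 (0.091) or 4 (0.0973), and the second with 4 settings (0.0571 to 0.324), without replicate 1 (0.175) or 2 (0.384) and without FOXO4 8 h replicate 3 (0.0504). G6pc3, the widely expressed glucose 6-phosphatase, fell at 8 h to -0.40 ± 0.049 and -0.31 ± 0.049. Its partner Slc37a4, the glucose 6-phosphate translocase, fell to -0.28 ± 0.046 (adjusted p = 6.75e-05) and -0.17 ± 0.046 (adjusted p = 0.0147), and Pck2, the mitochondrial phosphoenolpyruvate carboxykinase, fell in FOXO4 cells at 2 h and 8 h to -0.24 ± 0.049 (adjusted p = 0.0036) and -0.21 ± 0.049 (adjusted p = 0.00407). In FOXO4 cells at 8 h the Slc37a4 call was lost with median centring (0.16), external-control centring (0.129) and no dye term (0.271), and without replicate 2 (0.0817), 3 (0.0612) or 4 (0.0683). Pck2 was lost at 2 h with probes averaged (0.303) and at 8 h with median centring (0.168). Pcx was below the filter on dim probes, and G6pdx and Rpia were not analysed here.

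Some genes outside these lists had nearly the same 4 group means as a member, ranked by root mean square difference over the 4 means. Symbols of the clone, predicted-gene and identifier type (such as Rik, Gm and LOC names) were left out of this ranking. The nearest to Pdk1 were Mrps26 (0.020), Lpcat1 (0.026) and Nufip1 (0.028), and to Slc2a1 they were Fam102a (0.029), Polh (0.042) and Chek2 (0.045). For Hk2 no ranked gene was as near: Hsph1, an HSP110 chaperone, was at 0.18, Pdxp at 0.24 and Fastkd1 at 0.25. Hsph1 stood at -0.67, -0.72, -0.58 and -0.25 in FOXO3 cells at 2 h and 8 h and FOXO4 cells at 2 h and 8 h, so in FOXO4 cells at 8 h its mean stayed below that of Hk2.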

How the data were processed

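RNA of 16 treated cultures was compared with time 0 pools on 2-colour arrays. Per the file headers, the deposited scanner files give each spot's mean intensity and local background in 2 channels. The authors also deposited log2 values, which equalled log2(treated / time 0) of their normalized intensities within 5e-06; the sources used here do not give their normalization.

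From the intensities, background was corrected with normexp (offset 50, which shrinks ratios of dim probes) and ratios were loess-normalized within arrays, controls at weight 0. Probes had to exceed local background in either channel by 2 SDs, on 4 or more arrays. The platform annotation gave 1 symbol for 26000 of 31769 gene probes, 0 had several and 5769 none; symbols were updated through RefSeq. The brightest probe stood for a gene. limma 3.58.1 (R 4.3.3) fitted, over 16 arrays, a mean per group (4) plus a dye effect for each gene, with Benjamini-Hochberg adjustment. The pool is 1 control sample per line, whose own spread no test holds. The design text calls replicates independent. The sources used here name no genome build for the array, so only promoters have coordinates. The number of arrays limits precision (median SE 0.0501). The fit was tested on simulated data.

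Members and lists were chosen with earlier results of these data known. Genes named were all members and up to 4 called genes of smallest adjusted p per other list. Also named were 8 regulators and enzymes whether called or not, and the 3 ranked genes nearest to each of Hk2, Slc2a1 and Pdk1. Pgm1 was named to complete a count. Alternatives changed the centring, the source of values, background correction, probes, the dye term, the samples fitted, the filter, the block and single arrays. The line-by-time comparison and the channel levels were added after seeing the data.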

Additional observations from a re-analysis of the deposited data

Results flagged for a closer look

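Within a group of 4 arrays, 1 array stood apart from the rest in 3 of 40 member groups, after removal of the dye term; chance gives about 1 in 20. Slc2a1 in FOXO4 cells at 2 h was at -0.071 on replicate 2 and at -0.25 to -0.24 on the other 3. Pfkl in FOXO3 cells at 8 h was at -0.34 on replicate 3 and at -0.57 to -0.55 on the others. Pkm in FOXO4 cells at 2 h was at -0.11 on replicate 4 and at 0.21 to 0.27 on the others.

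Effects that differed between times or lines by a test of the difference were as follows. From 2 h to 8 h in FOXO3 cells the log2 difference was 0.22 for Slc2a1, 0.26 for Slc2a3, -0.38 for Hk1, 0.38 for Pfkp, -0.40 for Pfkl, -0.32 for Pgam1 and -0.63 for Pdk1. In FOXO4 cells it was 0.46 for Hk2 and 0.42 for Pfkp. Between the lines at 8 h (FOXO3 minus FOXO4) it was -0.34 for Hk1, -0.90 for Hk2, -0.35 for Pgam1 and -0.46 for Pdk1. The change over time differed between the lines by -0.58 for Hk2 and -0.41 for Pgam1.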

How the results depend on the processing

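Over 90 member results (10 genes in 9 comparisons), 2196 of 2301 recomputed values kept their side of the threshold, 71 lost a call, 34 gained one and 0 called values changed sign. Values that were not called before or after count as kept whatever their sign, and some of them changed sign. Centring on external controls used the 1 of 14 control types with a detectable signal. It shifted the median of all genes by at most -0.11 in a group mean (FOXO4 at 2 h), but single arrays shifted more. With it the median of all named probes ran from -0.50 (FOXO4 2 h replicate 2) to 0.18 (FOXO3 2 h replicate 1). In the main values that median ran from -0.011 to 0.0096 over the arrays. The cause of the changes below was not tested, except that without the dye term the dye effect enters the spread and that a stricter filter tests fewer genes.

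Members called, 5 in FOXO4 at 2 h and 4 at 8 h, came to 2 each without the dye term. From 2 h to 8 h, 7 in FOXO3 became 4 with median centring, 4 with external-control centring and 3 without the dye term, and 2 in FOXO4 became 1 without it. Between the lines at 2 h, 0 became 1 on the authors' deposited log2 values; at 8 h, 4 became 2 with external-control centring, 1 without the dye term and 7 (6 lower and Slc2a3 higher) with a filter at the external controls. For the change over time between lines, 2 became 0 with external-control centring and 1 with median centring, the authors' values, no background correction, no dye term, no filter or the replicate block. Without 1 array the counts ranged over 3 to 4 and 6 to 7 in FOXO3 and 3 to 5 and 2 to 5 in FOXO4 against 0 h at 2 h and 8 h. From 2 h to 8 h they ranged over 6 to 7 in FOXO3 and 2 to 3 in FOXO4. Between lines they were 0 at 2 h and 3 to 6 at 8 h, and for the change over time 1 to 3.

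All genes called in FOXO3 at 2 h numbered 1364, but 529 with external-control centring and 466 without the dye term; at 8 h 5329, and 3392 without it. In FOXO4 at 2 h 1538 became 1009 (median centring) and 480 (no dye term), and at 8 h 3227 became 1856 (external controls) and 1608 (no dye term). From 2 h to 8 h 3804 in FOXO3 became 2233 and 2037, and 1869 in FOXO4 became 840 and 601, under the same 2 settings. Between the lines at 8 h 1862 became 612 and 557, and for the change over time 578 became 29 and 69, with 178 under median centring. At 2 h 6 became 1 and 2, with 2 under median centring, 10 on the authors' values and 3 with the block.

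Residuals left by the group means and dye term were correlated between 2 h and 8 h arrays. For same-numbered arrays they gave 0.17, -0.082, -0.39 and -0.038 in FOXO3 and 0.076, 0.025, 0.059 and -0.0081 in FOXO4. Differently numbered arrays ran from -0.40 to 0.45 in FOXO3 and from -0.13 to 0.16 in FOXO4. The numbers were not taken as pairs, and the source of the larger correlations was not tested. With the number as a replicate block members called were 4, 7, 5 and 4 against 0 h, 7 and 3 from 2 h to 8 h, 0 and 4 between lines, and 1 for the change over time. The differences between lines given for Pgm2, Tpi1 and Txnip were not recomputed under the alternatives. Dim probes limit what can be seen of Ldha, the dimmer Hk1 probe, Pdk4, Pdp1 and Pfkfb1, all on 0 of 16 pool channels above the external controls, and of Adpgk (6 of 16), Pfkm (7) and Mlx (7). The same holds for Cd3e (6 of 16), Polh (5) and Fam102a (3). Lpcat1 and Klf1 were above them on 10 of 16 pool channels but on only 4 and 1 of 16 treated channels.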
